A study of Mus musculus with 12 samples.

Results

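Cells of the mouse macrophage line RAW264.7 were compared for how the loss of TFEB and TFE3 changed their response to etoposide. The quantity reported is the interaction of genotype and etoposide: the log2 response of double knockout (DKO) cells minus the log2 response of Null cells. It was computed for every gene from all 12 libraries of the series, and 18066 of the 32688 genes listed were abundant enough to be tested. The 12 libraries form 4 groups of 3: Null control, Null etoposide, DKO control and DKO etoposide. DKO cells carry CRISPR-made knockouts of both Tfeb and Tfe3, and the Null cells are the line that the study's text calls WT. Treated cells of either genotype received 100 µM etoposide for 8 h, whereas the controls are untreated according to the labels and DMSO-treated according to the methods. Each genotype is represented by 1 line as far as the labels say, and the study calls its samples independent without saying whether they came from separate cultures, so the p-values measure the spread between these libraries only. A negative interaction is called lower and a positive one higher, always meaning the response of DKO cells relative to that of Null cells.

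Etoposide traps topoisomerase II on DNA and leaves strand breaks. The breaks stabilise p53, which raises the transcription of cell cycle inhibitors such as Cdkn1a and of genes for apoptosis and repair. Cdkn1a keeps the pocket proteins of the DREAM complex active, and this complex represses cell cycle genes through promoter elements called CHR and E2F sites, while NF-Y activates many of the same promoters through CCAAT boxes. TFEB and TFE3 are related transcription factors that are best known for driving lysosomal and autophagy genes through the CLEAR element and that also enter the nucleus under several kinds of stress.

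Library totals ran from 29837255 to 61809316 counts. Over the 9481 genes with a mean above 3 log2 CPM (read counts scaled to a common library size), 1 component took 81.5% of the variance that remained within groups. Along it Null control replicate 1 and DKO control replicate 3 lay at one end (positions 0.43 and 0.37) and Null control replicate 3 and DKO control replicate 1 at the other (−0.38 and −0.58), while the 3 Null etoposide libraries lay between −0.04 and 0.03. The DKO etoposide libraries spread along this component from −0.27 to 0.28. The part of this component in the results was not tested. Genes spread more between control replicates, with a median log2 SD of 0.21 (Null) and 0.24 (DKO), than between etoposide replicates, with 0.09 (Null) and 0.15 (DKO). The word MEFs stands in the titles of the DKO libraries with etoposide, although their other labels say RAW264.7. The summed level of 8 macrophage markers was 4583 to 4773 CPM in these libraries and 4191 to 5130 CPM in the other groups, with none at 0. The summed level of 16 fibroblast markers, leaving out S100a4, which macrophages also express, was 3.44 to 3.63 CPM in these 3 libraries, 3.62 to 3.90 CPM in the treated Null libraries and 1.04 to 2.07 CPM in the controls of both lines. Of the 18 fibroblast genes listed, 5 were abundant enough to be tested, with Pdgfra lower (−1.52) and Pdgfrb higher (1.09), and each lost its call when certain single libraries were left out. Pdgfrb lost its call in 12 of the settings tried, most of them fits without 1 library (limma-trend adjusted p up to 0.0863). Pdgfra lost its call in 18 settings, limma-voom, edgeR and DESeq2 among them (adjusted p up to 0.9999). The defining collagen gene Col1a1 did not exceed 0.135 CPM in any library.

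Of the 18066 genes tested, 1708 (9.45%) had a called interaction, at an adjusted p under 0.05 in limma-trend with Benjamini-Hochberg adjustment. The DKO response was lower for 1154 genes (6.39%) and higher for 554 (3.07%), while the median interaction over all genes was −0.01. Lower calls were also larger: 644 of them reached a difference of 1 on the log2 scale and 223 reached 2, against 172 and 39 of the higher calls. The median size of a call was 1.12 among lower genes and 0.70 among higher ones. The difference of the responses in CPM, in place of log2 units, had the opposite sign for 84 of the 1154 lower and 18 of the 554 higher genes. Of the calls, 178 lower and 79 higher were of genes with a group mean under 0.5 CPM. On simulated counts most calls in this class were false, whereas few were among the other genes. The simulated differences were placed only in genes with a mean of at least 1 CPM over the groups. The false share in this class therefore does not carry over to the real calls, and single calls in it are uncertain. Among the genes described here these are Scin, Lipg, Pla2g2d, Arhgap24, Bhlhe41, Scimp, Il10, Ccl5, Pdgfrb, Plk2, Myc, Trib3, Cxcl10, Mx1, Arhgap32 and Pdgfra.

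**Figure D1:**
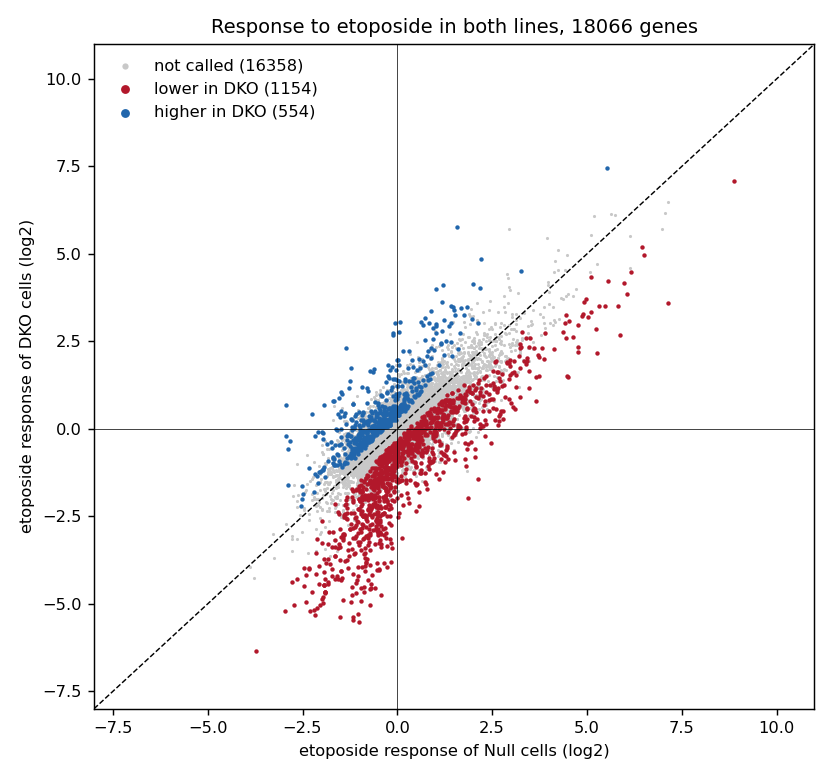
Each point is 1 of 18066 genes, with its etoposide response in Null cells on the horizontal and in DKO cells on the vertical axis, both as log2 fold changes, and the dashed line marks equal responses. The 1154 genes called lower (red) lie under it and spread downward at negative Null responses, and the 554 genes called higher (blue) lie over it.

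The responses behind the calls were of several kinds. The most frequent was a gene that fell in both lines and more in DKO cells, with 424 genes and a median interaction of −1.45. Another 241 genes fell in DKO cells alone, 226 rose in both lines but less in DKO cells and 194 rose in Null cells alone. Among the higher genes, 159 fell in Null cells alone, 133 rose in DKO cells alone, 125 fell in both but less in DKO cells and 85 rose in both and more in DKO cells. The lines moved in opposite directions for 66 genes that rose in Null and fell in DKO cells and for 51 that fell in Null and rose in DKO cells. For 4 genes neither response passed the test by itself.

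**Figure D2:**
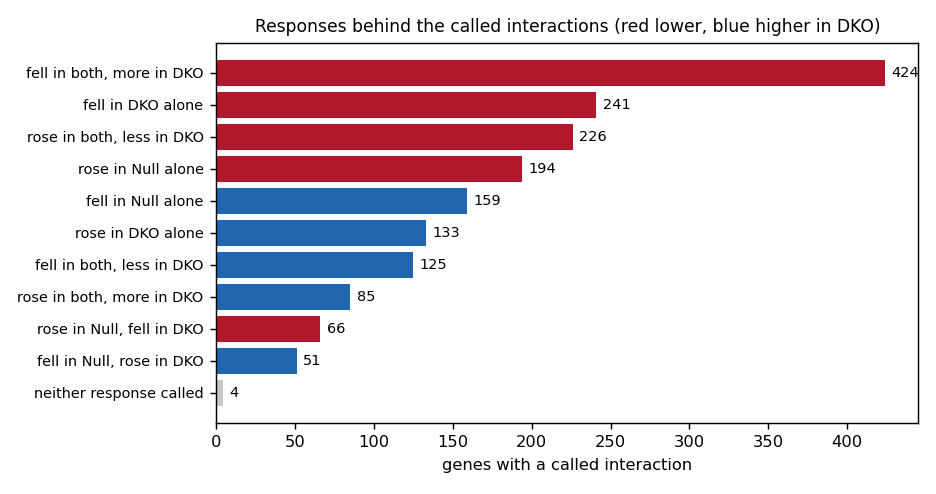
Bars give the number of genes with a called interaction by how they responded to etoposide in each line. Genes that fell in both lines and more in DKO cells are the longest bar (424), and the 2 bars of opposite directions hold 66 and 51 genes; the grey bar holds 4 genes for which neither response was called.

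The lines were also compared in each state. Of the 1708 genes, 971 differed between the lines after etoposide alone, 723 of them lower and 248 higher in interaction. A further 238 differed between the lines in control cells and more widely after etoposide. By contrast, 218 genes differed in control cells alone and 152 differed in both states but less after etoposide; in both of these classes the lines were closer after etoposide. The difference changed its sign in 113 genes, and 16 genes passed neither test between lines.

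The targeted genes were low in the libraries labelled DKO. Tfeb (ENSMUSG00000023990.18) was at 17.1, 16.6 and 16.8 CPM in Null control and at 7.62, 7.10 and 7.95 CPM in Null etoposide libraries. In DKO libraries it was at 3.14, 4.83 and 5.24 CPM without and at 4.27, 4.30 and 4.44 CPM with etoposide, so that no DKO library reached a Null one. The interaction of 1.16 (SE 0.22, limma-trend adjusted p 0.00499) came with a fall that passed the test in Null cells alone. Tfe3 was between 89.3 and 119 CPM in the 6 Null and between 31.5 and 42.5 CPM in the 6 DKO libraries, with an interaction of 0.04 (95% interval −0.34 to 0.42) that was not called. The reads left in DKO cells were not examined for edits.

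Genes of the mitotic spindle, kinetochore, condensin and cytokinesis had the largest median interaction of the 18 lists described. These are the proteins that build the spindle, attach chromosomes to it and split the cell. Of the 98 tested, 91 were called lower (92.9%, against 6.39% of all genes) and none higher, and 97 of the 98 estimates were negative. Their median response was −0.60 for Null and −2.90 for DKO cells, with a median interaction of −2.32 against −0.01 over all genes. In control cells 9 of the 98 were lower and 4 higher in DKO than in Null cells, where 8.40% and 10.9% of all genes were. After etoposide 95 were lower and none higher, against 17.8% and 15.9% of all genes. In bulk RNA, fewer cells in division and less RNA per dividing cell cannot be told apart.

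The 10 most negative interactions, among protein-coding genes of at least 5 CPM in some group, all belonged to genes of cell division. Cenpf, a kinetochore protein (ENSMUSG00000026605.14, chromosome 1, 189640606 to 189688086, minus strand, GRCm38), was at 162, 146 and 148 CPM in Null control and at 132, 148 and 170 CPM in DKO control libraries. After etoposide it was at 81.4, 70.6 and 76.3 CPM in Null and at 3.29, 2.83 and 3.47 CPM in DKO libraries. The lines overlapped in control cells and were far apart after etoposide, and the interaction was −4.53 (SE 0.15, 95% interval −4.85 to −4.20, limma-trend adjusted p 2.82e-09). Ccnb2, a mitotic cyclin, was at 144, 140 and 134 CPM in Null control, 135, 158 and 186 CPM in DKO control, 62.1, 60.8 and 62.4 CPM in Null etoposide and 4.09, 2.90 and 3.63 CPM in DKO etoposide libraries. It showed the same arrangement, with an interaction of −4.30 (SE 0.18). Plk1, the polo-like kinase of mitotic entry, varied more in control cells, from 67.2 to 129 CPM in Null and from 73.4 to 141 CPM in DKO libraries. After etoposide it was at 41.6 to 47.5 CPM in Null and 2.61 to 3.01 CPM in DKO cells, with an interaction of −4.26 (SE 0.35). The remaining 7 were Hmmr (−4.32), Depdc1a (−4.31), Aspm (−4.22), Cdc25c (−3.98), Nuf2 (−3.95), Pimreg (−3.87) and Kif14 (−3.85). Hmmr and Aspm act at spindle poles, Cdc25c activates the mitotic cyclin kinase, Nuf2 belongs to the outer kinetochore and Kif14 is a kinesin of cytokinesis. All 10 had a DKO etoposide mean under 4 CPM, which is a description of genes chosen by this same contrast.

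For several mitosis genes no fall passed the test in Null cells. Cenpe, a kinetochore motor, was at 163, 161 and 166 CPM in Null control and 158, 132 and 145 CPM in Null etoposide libraries, a change of −0.18 that was not called (limma-trend adjusted p 0.0794). In DKO cells it went from 155, 153 and 162 CPM to 16.4, 16.9 and 15.4 CPM, and the interaction was −3.09 (SE 0.10). Cdc20, the activator of the anaphase-promoting complex, was at 101 ± 9.35 CPM in Null control and 88.7 ± 3.79 CPM in Null etoposide cells, against 106 ± 20.5 and 11.9 ± 1.31 CPM in DKO cells (SD, n = 3). Kif18b, a kinesin that trims microtubule ends, rose in Null cells by 0.50 and fell in DKO cells by 2.35 on the log2 scale. Its Null libraries went from 91.0, 83.9 and 81.1 CPM to 120, 121 and 121 CPM, whereas its DKO libraries went from 69.7, 77.3 and 69.1 CPM to 15.9, 13.8 and 12.7 CPM. Troap (−3.62) and Fam83d (−3.69), which also act at the spindle, fell in DKO cells alone.

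The promoters of the lowest genes are printed because a CHR element lay close to the start of transcription in several of them. Of the 10 genes, RefSeq (GRCm38.p6) gave a promoter for 8, and 5 of these held a CHR within the window shown, from 100 bases before to 15 after the start. Capitals mark the CHR (TTTGAA or TTCGAA) and the CCAAT box on either strand, so that TTCAAA and ATTGG are the same elements read backwards, and each sequence runs 5′ to 3′ along its gene.
Cenpf, chr1:189688072-189688186, minus strand: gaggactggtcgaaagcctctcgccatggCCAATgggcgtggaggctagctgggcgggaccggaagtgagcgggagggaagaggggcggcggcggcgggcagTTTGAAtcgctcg
Hmmr, chr11:40733423-40733537, minus strand: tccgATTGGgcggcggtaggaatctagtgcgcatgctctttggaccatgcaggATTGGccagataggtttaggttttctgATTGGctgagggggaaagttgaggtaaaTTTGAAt
Depdc1a, chr3:159495333-159495447, plus strand: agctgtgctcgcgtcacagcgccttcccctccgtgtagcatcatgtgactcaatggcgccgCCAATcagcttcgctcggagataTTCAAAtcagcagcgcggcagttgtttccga
Ccnb2, chr9:70421540-70421654, minus strand: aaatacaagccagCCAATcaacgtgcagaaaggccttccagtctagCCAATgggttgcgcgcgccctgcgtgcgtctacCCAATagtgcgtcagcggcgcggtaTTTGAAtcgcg
Aspm, chr1:139454673-139454787, plus strand: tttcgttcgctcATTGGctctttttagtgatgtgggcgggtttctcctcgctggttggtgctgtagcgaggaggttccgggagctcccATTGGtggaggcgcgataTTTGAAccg
Counted from 1 at the first transcribed base, the CHR began at position 3 in Cenpf, 9 in Hmmr, −16 in Depdc1a, 5 in Ccnb2 and 7 in Aspm, and each of the 5 promoters had at least 1 CCAAT box upstream of it. In Plk1 the CHR letters began at position 31, outside the window.

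Over all genes with a RefSeq promoter, this arrangement was uncommon. A CHR within 30 bases of the start was found in 2.46% of the 13689 promoters of genes tested, in 10.2% of the promoters of genes called lower and in 2.44% of those called higher. The share was 34.0% for genes lower by at least 2 on the log2 scale and 46.7% for the mitosis list. A CHR there together with a CCAAT box before the start was found in 1.08%, 6.19%, 0.81%, 24.7% and 37.0% of the same sets. Among genes lower by at least 2 that are outside the mitosis list, 19.0% had the CHR and 11.4% had both. Only the mitosis list was removed there, so strongly lower genes of the replication and cell cycle regulator lists, such as Rrm2 and E2f7, were not. The shares count matches of letters and not measured binding sites, and promoters of 1 gene overlap each other.

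**Figure D3:**
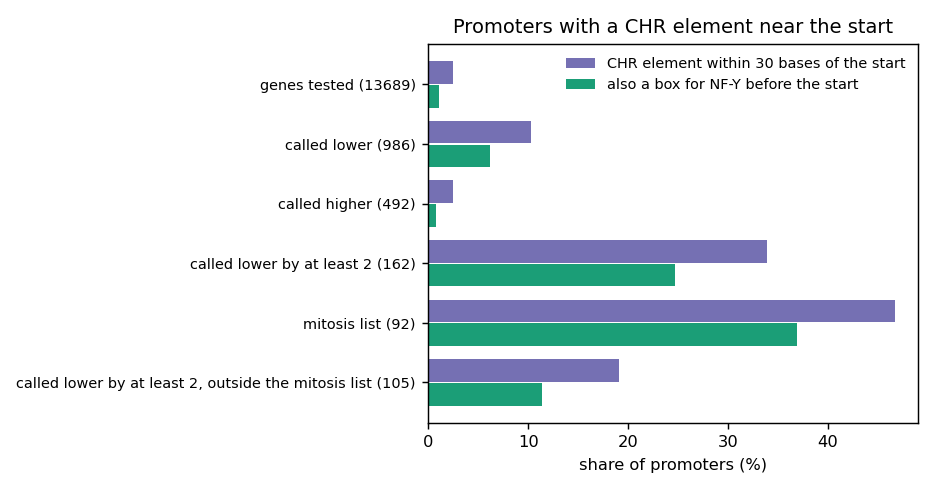
Bars give the share of promoters, in percent, with a CHR element within 30 bases of the start (purple) and with a CCAAT box before the start as well (green), for each class of genes with the number of promoters in brackets. The CHR share was 2.46% over genes tested, 10.2% for genes called lower, 2.44% for genes called higher and 46.7% for the mitosis list.

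DNA replication and nucleotide synthesis genes were lower in the DKO response for 45 of 65 genes (69.2%, against 6.39% of all genes) and higher for none. Their median responses were −0.48 in Null and −1.27 in DKO cells, and DKO cells had the lower level of 57 of the 65 after etoposide (17.8% of all genes) and of 15 without it (8.40% of all genes). Rrm2, the regulated subunit of ribonucleotide reductase, was at 107, 101 and 91.4 CPM in Null control and at 80.2, 82.0 and 74.4 CPM in Null etoposide libraries. The DKO libraries went from 90.8, 104 and 92.0 CPM to 13.4, 13.5 and 13.6 CPM, below every other library, with an interaction of −2.48 (SE 0.11). Mcm10 (−2.14) and Ticrr (−2.02), which help to load and fire replication origins, followed. A consensus E2F site (TTTCCCGC or TTTGGCGC, either strand) was present in 20.9% of the promoters of this list, against 2.78% of those of all genes tested and 8.70% of the mitosis list.

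Replication-dependent histone genes fell with etoposide for 64 of 66 in Null and 65 of 66 in DKO cells (18.7% and 19.1% of all genes fell). The fall was larger in DKO cells, with median responses of −1.66 in Null and −3.63 in DKO cells, and 54 of 66 genes were called lower (81.8%, against 6.39% of all genes) and none higher. Hist1h1b, the linker histone H1.5 gene, was at 105, 151 and 183 CPM in Null control, 144, 81.7 and 68.2 CPM in DKO control, 31.3, 33.7 and 30.4 CPM in Null etoposide and 2.49, 2.45 and 1.92 CPM in DKO etoposide libraries (interaction −3.15, SE 0.35). Hist1h3c, an H3 gene, was at 56.0 ± 4.10 and 14.3 ± 1.95 CPM in Null cells without and with etoposide and at 42.1 ± 8.56 and 1.26 ± 0.0975 CPM in DKO cells (SD, n = 3). For 25 of the 54 genes called, Hist1h1b among them, the loss in CPM was not larger in DKO cells, because their mean control level was lower there. For these the call holds for the proportion lost and not for the amount. The difference between the lines in control cells was itself called lower for 11 and higher for 1 of the 66, against 8.40% and 10.9% of all genes. In 20 of the 66 genes an overlapping gene could supply at least 25% of the counts, and near-identical copies make single histone genes uncertain.

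Transcription regulators of the cell cycle, cyclins and their inhibitors included activators and repressors. Of 45 tested, 22 were lower (48.9%, against 6.39% of all genes) and none higher, with a median interaction of −0.51. Foxm1, which activates mitotic genes, went from 150, 129 and 101 CPM to 62.8, 61.1 and 60.6 CPM in Null cells and from 96.1, 132 and 131 CPM to 19.6, 16.1 and 20.5 CPM in DKO cells (interaction −1.64, SE 0.22, limma-trend adjusted p 0.000325). The control libraries of both lines overlapped and the etoposide libraries did not. Ccna2, the cyclin of S phase and mitotic entry, had an interaction of −2.92 and the repressors E2f7 and E2f8 each had −2.16. Lin54, the DREAM subunit that contacts the CHR, ended at 51.6 ± 2.85 CPM (Null) and 21.7 ± 1.21 CPM (DKO) after etoposide (SD, n = 3), with an interaction of −0.96. E2f1 had −0.51 and was not called (limma-trend adjusted p 0.0909). Cdkn1a and the pocket protein gene Rbl2, chosen after their values were seen, rose in both lines but less in DKO cells. Cdkn1a rose by 3.03 in Null and by 1.59 in DKO cells, from means of 48.2 and 107 CPM, so that the DKO etoposide level of 321 CPM was not distinguished from the Null level of 392 CPM (limma-trend adjusted p 0.0779). Rbl2 rose by 1.26 in Null and by 0.33 in DKO cells.

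p53 target genes had a smaller median response in DKO than in Null cells. Of 48 tested, 35 rose in Null and 29 in DKO cells, against 20.9% and 20.2% of all genes, the median response was 1.64 against 0.77, and the interaction was lower for 22 and higher for 1 (45.8% and 2.08%, against 6.39% and 3.07% of all genes). Without etoposide 18 of the 48 were higher and 4 lower in DKO than in Null cells, against 10.9% and 8.40% of all genes. With etoposide 5 were higher and 25 lower, against 15.9% and 17.8% of all genes. The median difference between the lines was 0.31 without and −0.34 with etoposide. The strength of the interaction varied among targets. Pmaip1, which encodes the BH3-only protein NOXA, was at 17.1, 16.8 and 18.4 CPM in Null control and at 84.4, 75.7 and 79.4 CPM in Null etoposide libraries. The DKO libraries were at 21.8, 21.8 and 23.1 CPM without and 22.7, 26.4 and 24.2 CPM with etoposide, which overlap. The interaction was −2.05 (SE 0.11, limma-trend adjusted p 1.14e-07), and the DKO response of 0.14 did not pass the test (limma-trend adjusted p 0.199). Bbc3, which encodes the related protein PUMA, rose by 1.94 in Null cells to 66.7, 78.5 and 72.7 CPM and stood at 32.3, 28.0 and 31.6 CPM in DKO etoposide libraries, with an interaction of −1.57 (SE 0.22). Fas, a death receptor, rose in both lines, to 10.7 ± 0.744 CPM (Null) and 7.28 ± 0.423 CPM (DKO; SD, n = 3), with an interaction of −1.86 that partly came from a higher DKO control level (1.46 against 0.552 CPM). Mdm2, the E3 ligase that p53 induces against itself, rose in both lines, to 472, 438 and 467 CPM in Null and 328, 342 and 325 CPM in DKO libraries, with an interaction of −0.79 (SE 0.14).

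Other p53 targets began from different levels. Epha2, a receptor tyrosine kinase, was at 3.89, 3.41 and 3.07 CPM in Null control and already at 15.1, 21.6 and 20.7 CPM in DKO control libraries. After etoposide it was at 207, 210 and 197 CPM in Null and at 126, 107 and 137 CPM in DKO libraries, with an interaction of −3.18 (SE 0.20). Plk2, a kinase of the polo family, had an interaction of −3.55, yet it was at 0, 0 and 0.0648 CPM in Null control libraries, and the rise in CPM was larger in DKO cells (from 1.59 to 20.0 CPM) than in Null cells (to 10.7 CPM). The direction for Plk2 is therefore set by the log scale. Sesn1 was the member called higher (0.74, limma-trend adjusted p 0.0181): it fell in Null cells from 43.4 ± 6.71 to 27.9 ± 0.848 CPM and was at 16.5 ± 2.47 and 17.7 ± 0.691 CPM in DKO cells (SD, n = 3). Its call was lost without Null control replicate 2 or Null etoposide replicate 3 (limma-trend adjusted p up to 0.056). It was also lost when the replicate number was added to the model. Trp53 itself was not called (−0.37, 95% interval −1.51 to 0.78). It ranged from 263 to 609 CPM in Null control and from 269 to 750 CPM in DKO control libraries, and it was high in the libraries at the upper end of the within-group component and low in those at the lower end.

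**Figure D4:**
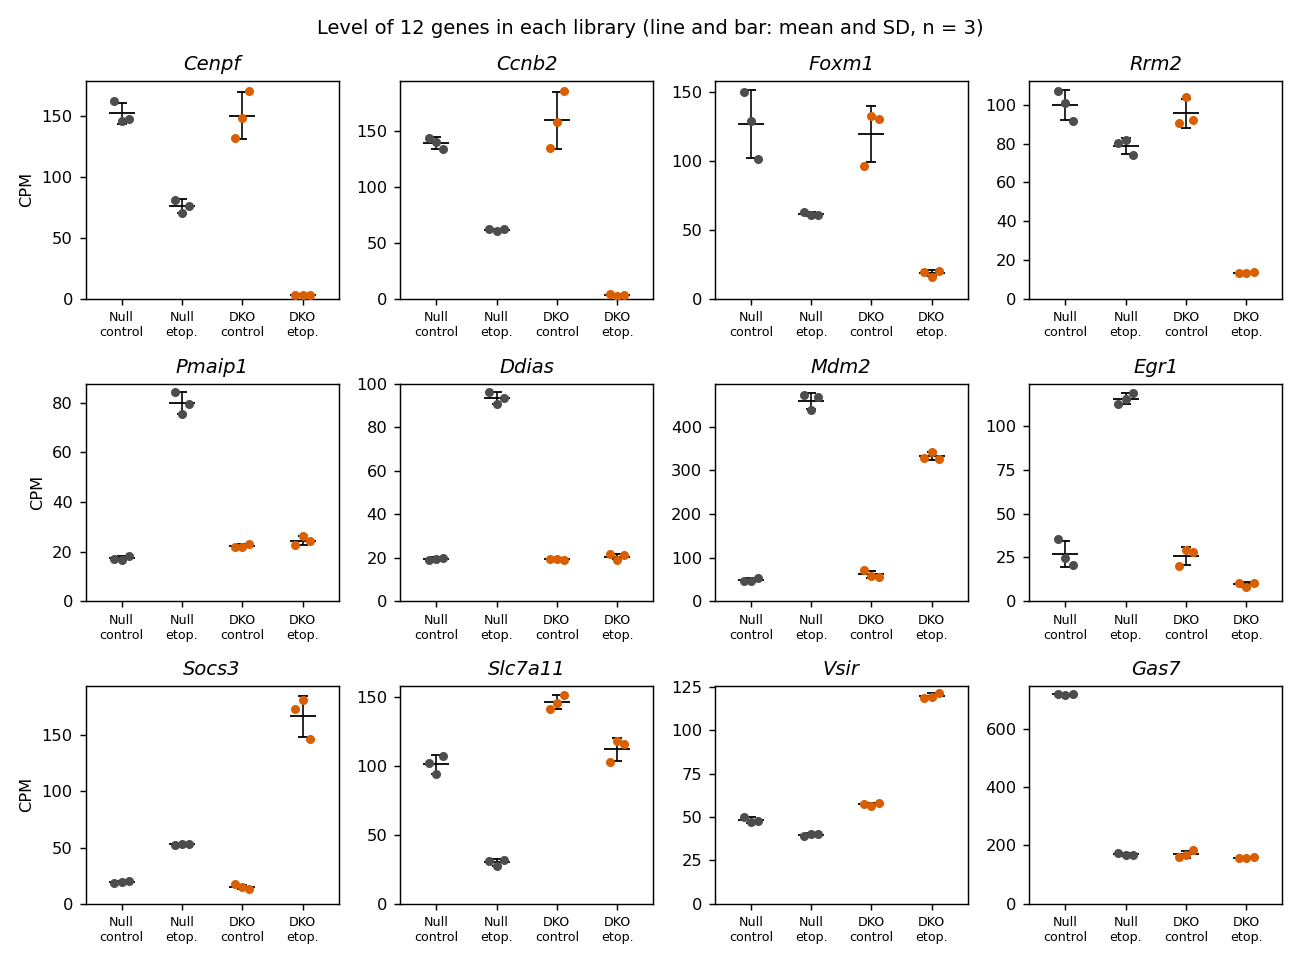
Points are the CPM of 12 genes in the 12 libraries, with the mean and SD of each group of 3, from left to right Null control, Null etoposide, DKO control and DKO etoposide. Cenpf, Ccnb2, Foxm1 and Rrm2 were lowest in DKO etoposide libraries, Pmaip1, Ddias and Mdm2 rose in Null libraries more than in DKO libraries, Egr1 rose in Null and fell in DKO libraries, and Socs3 and Vsir were highest in DKO etoposide libraries.

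Genes of break signalling and repair were lower for 33 of 77 (42.9%, against 6.39% of all genes) and higher for none (median interaction −0.37). Fancd2, the central Fanconi anaemia protein, was at 51.8, 49.7 and 50.4 CPM in Null etoposide and at 6.69, 4.76 and 7.87 CPM in DKO etoposide libraries, from 73.4 to 111 and 61.0 to 122 CPM in the controls (interaction −2.99, SE 0.34). Neil3, a glycosylase that unhooks crosslinks, had −3.32 and Gen1, a Holliday junction resolvase, −3.07. Brca1, chosen after its values were seen, had an interaction of −1.51. Ddias, an apoptosis suppressor induced by DNA damage that is on none of the lists, rose in Null cells alone. Its Null libraries went from 18.8, 19.5 and 20.1 CPM to 96.4, 91.0 and 93.5 CPM and its DKO libraries from 19.5, 19.7 and 18.9 CPM to 21.6, 19.1 and 21.1 CPM (interaction −2.17, SE 0.10, limma-trend adjusted p 2.59e-08). Genes of the BCL2 family, caspases and death receptors beyond the p53 targets were called in few cases. Of 35 tested, 5 were lower (14.3%, against 6.39% of all genes) and none higher with a median of −0.11, and 4 of those 5 (Pmaip1, Bbc3, Fas and Apaf1) were also on the p53 list. The other one, Bcl2l11, which encodes BIM, had an interaction of −0.61 and, like Apaf1 (−0.34), was chosen after its value was seen.

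Immediate early genes, which are transcribed within minutes of growth factor or stress signals, had a median response of 1.57 in Null and 0.56 in DKO cells, with 14 of 43 lower and 2 higher (32.6% and 4.65%, against 6.39% and 3.07% of all genes). Without etoposide 22 of the 43 were higher and 5 lower in DKO than in Null cells, against 10.9% and 8.40% of all genes. With etoposide 16 were higher and 13 lower, against 15.9% and 17.8% of all genes. The median difference between the lines was 0.62 without and 0.13 with etoposide. Egr1 was the clearest case of opposite responses. It rose in Null cells from 35.4, 24.8 and 20.9 CPM to 112, 116 and 119 CPM and fell in DKO cells from 20.0, 29.2 and 28.4 CPM to 10.5, 7.92 and 10.3 CPM. The lines overlapped in control cells and not after etoposide, with an interaction of −3.55 (SE 0.27, limma-trend adjusted p 2.43e-06). Egr2, Fosl1 and Myc also had negative interactions (−2.18, −2.30 and −2.31), but in these the DKO control level was the higher one. Egr2 was at 9.38 ± 3.10 CPM in DKO control against 1.78 ± 0.512 CPM in Null control cells, and after etoposide the lines overlapped at 6.86 ± 1.16 and 6.07 ± 0.180 CPM (SD, n = 3). Fosl1 gained more CPM in DKO cells (42.5 to 92.5 CPM) than in Null cells (4.04 to 44.1 CPM), so its direction too is set by the log scale. Among these genes, 4 of the 16 called had a difference in CPM of the opposite sign. Btg1 (0.56) and Klf2 (1.05) were the genes called higher, a share near that of all genes.

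Inflammatory genes moved both ways. Of 47 genes of the NF-kB pathway, cytokines and chemokines, 11 were lower and 8 higher (23.4% and 17.0%, against 6.39% and 3.07% of all genes), with a median of −0.02. Cd40, a costimulatory receptor, rose in Null cells from 7.14 ± 0.313 to 9.98 ± 0.663 CPM and fell in DKO cells from 5.96 ± 0.149 to 3.06 ± 0.263 CPM (SD, n = 3; interaction −1.43, SE 0.14). Tnfaip3, a deubiquitinase that restrains NF-kB, behaved likewise (−1.21), and Cd80 rose in both lines but less in DKO cells (−1.26). In the other direction, Socs3, a feedback inhibitor of cytokine receptors, was at 18.2, 19.4 and 20.0 CPM in Null control and 17.1, 14.5 and 13.5 CPM in DKO control libraries. After etoposide it was at 51.9, 53.3 and 53.3 CPM in Null and at 173, 181 and 147 CPM in DKO libraries (interaction 2.01, SE 0.14, limma-trend adjusted p 1.22e-06). Il10, an anti-inflammatory cytokine, was at 0.605, 0.625 and 0.540 CPM in Null etoposide and at 8.83, 8.88 and 9.94 CPM in DKO etoposide libraries, with control levels under 0.55 CPM in every library (2.15). Ccl5 had the largest estimate on this list (3.10) but stayed under 0.8 CPM in every library. Among type I interferon-stimulated genes 4 of 45 were lower and 2 higher (median 0.14), or 8.89% and 4.44%, shares near the 6.39% and 3.07% of all genes. Oasl1 rose more in DKO cells (1.15), Ifit2 fell by a larger proportion in DKO cells (−1.61) but lost more CPM in Null cells, and Cxcl10 fell in DKO cells alone (−2.78), from a mean of 1.24 to 0.228 CPM.

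Genes of macrophage receptors and identity included more higher than lower calls, 15 and 8 of 59, with a median of 0.20. These are 25.4% and 13.6%, against 3.07% and 6.39% of all genes. Clec4a1, a C-type lectin receptor, was at 5.09, 5.57 and 6.68 CPM in Null control and 12.7, 13.3 and 13.3 CPM in Null etoposide libraries. In DKO cells it went from 1.37, 1.40 and 1.34 CPM to 17.2, 18.1 and 17.8 CPM, from the lowest to the highest group (interaction 2.45, SE 0.15, limma-trend adjusted p 3.58e-07). Its neighbour on chromosome 6, Clec4a3, rose in DKO cells alone (1.99). Csf1r, the receptor for the growth factor CSF1, fell in both lines but less in DKO cells (0.59), from 1751 ± 116 to 764 ± 30.3 CPM in the Null line and from 1292 ± 127 to 849 ± 32.1 CPM in the DKO line (SD, n = 3). Spi1, the lineage factor PU.1, fell by 0.24 in Null cells and rose by 0.21 in DKO cells (interaction 0.45, limma-trend adjusted p 0.0221), but this call was lost without any of 4 single libraries (Null control replicate 2, Null etoposide replicates 1 and 3, DKO etoposide replicate 1; adjusted p up to 0.0705). Other receptor genes were lower. Fcgr1, the high-affinity IgG receptor, was at 37.3, 37.3 and 36.3 CPM in Null etoposide and at 5.23, 5.42 and 4.72 CPM in DKO etoposide libraries, from 69.4 ± 4.18 and 29.1 ± 1.09 CPM in the controls (SD, n = 3), an interaction of −1.59. The proportion lost was larger in DKO cells, whereas the loss in CPM was larger in Null cells. Fcgr2b (−1.14) and Clec7a (−1.36), a receptor for fungal glucans, rose in Null and fell in DKO cells.

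Lysosomal and autophagy genes of the CLEAR network, the textbook targets of TFEB and TFE3, were called in both directions. Of 67 tested, 5 were lower and 6 higher (7.46% and 8.96%), against 6.39% and 3.07% of all genes, and 1 of the 6 was the targeted gene Tfeb itself. The median responses were 0.09 in Null and 0.16 in DKO cells. The CLEAR letters (TCACGTGA, its own reverse complement) were present in 12.9% of the promoters of this list and 1.68% of those of genes tested, but in 1.42% of the promoters of both lower and higher genes. Ulk1, the kinase that starts autophagy, was at 21.2, 16.7 and 14.8 CPM in Null control and 92.9, 92.0 and 93.0 CPM in Null etoposide libraries. The DKO libraries went from 17.2, 21.7 and 20.3 CPM to 42.5, 35.6 and 40.5 CPM, an overlap in control cells and none after etoposide (interaction −1.41, SE 0.18, limma-trend adjusted p 0.000265). The cathepsin gene Ctsf (−0.66) and the galactosidase gene Gla (−0.57) were also lower, although Ctsf lost its call without Null etoposide replicate 3, DKO etoposide replicate 1 or DKO etoposide replicate 3 (limma-trend adjusted p up to 0.0571). The cathepsin gene Ctsh was higher (1.31), but its levels were far apart, with etoposide means of 61.6 CPM (Null) and 5.90 CPM (DKO), and the rise in CPM was larger in Null cells.

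Sterol and fatty acid synthesis genes were higher for 6 of 39 (15.4%, against 3.07% of all genes) and lower for none, with median responses of −0.38 in Null and −0.09 in DKO cells. The number higher was 3 without Null etoposide replicate 3 and 11 without DKO control replicate 1. A fall passed the test for 23 of the 39 in Null cells (18.7% of all genes) and for 8 in DKO cells (19.1% of all genes), the latter a share near that of all genes. Abca1, the cholesterol exporter, rose more in DKO cells (1.15), and Elovl6, a fatty acid elongase, fell in Null cells alone (0.70).

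The median responses of some lists were close in both lines. Genes of ATF4, amino acid synthesis and tRNA charging had a median response of −1.40 in each line, with 45 of 50 called down in each (18.7% of all genes in Null and 19.1% in DKO cells) and a median interaction of −0.01. The members called included Trib3 (−2.62) and Chac1 (−2.15), which fell further in DKO cells, and Slc7a11, the cystine transporter gene. Slc7a11 went from 102, 93.7 and 107 CPM to 31.2, 27.2 and 31.8 CPM in Null cells and from 141, 146 and 152 CPM to 102, 118 and 115 CPM in DKO cells (interaction 1.36, SE 0.12, limma-trend adjusted p 9.56e-06). In all, 5 genes of this list were lower and 2 higher, shares near the 6.39% and 3.07% of all genes, the second higher one being Gpt2 (0.34), which lost its call in 9 of the 12 fits that left out 1 library (limma-trend adjusted p up to 0.117). NRF2 antioxidant and iron genes had 2 lower and 3 higher of 37 (median 0.02), or 5.41% and 8.11% against 6.39% and 3.07% of all genes, with Keap1 (0.50), Slc7a11 and Abcc1 (0.39) higher and Sqstm1 (−0.51) and Me1 (−0.83) lower, although Me1 gained more CPM in DKO cells. Keap1, Sqstm1, Abcc1 and Me1 each lost the call when certain single libraries were left out, with limma-trend adjusted p up to 0.0604, 0.0669, 0.107 and 0.0567. Counting all settings tried, Abcc1 lost its call in 13, edgeR among them, Sqstm1 in 7, Keap1 in 3 and Me1 in 1. None of the 79 ribosomal protein genes (median 0.06) and none of the 13 mitochondrially encoded genes (median −0.07) were called. Their most abundant members, Rpsa and mt-Co1, had interactions of 0.16 (95% interval −0.15 to 0.46) and −0.02 (−0.73 to 0.69).

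**Figure D5:**
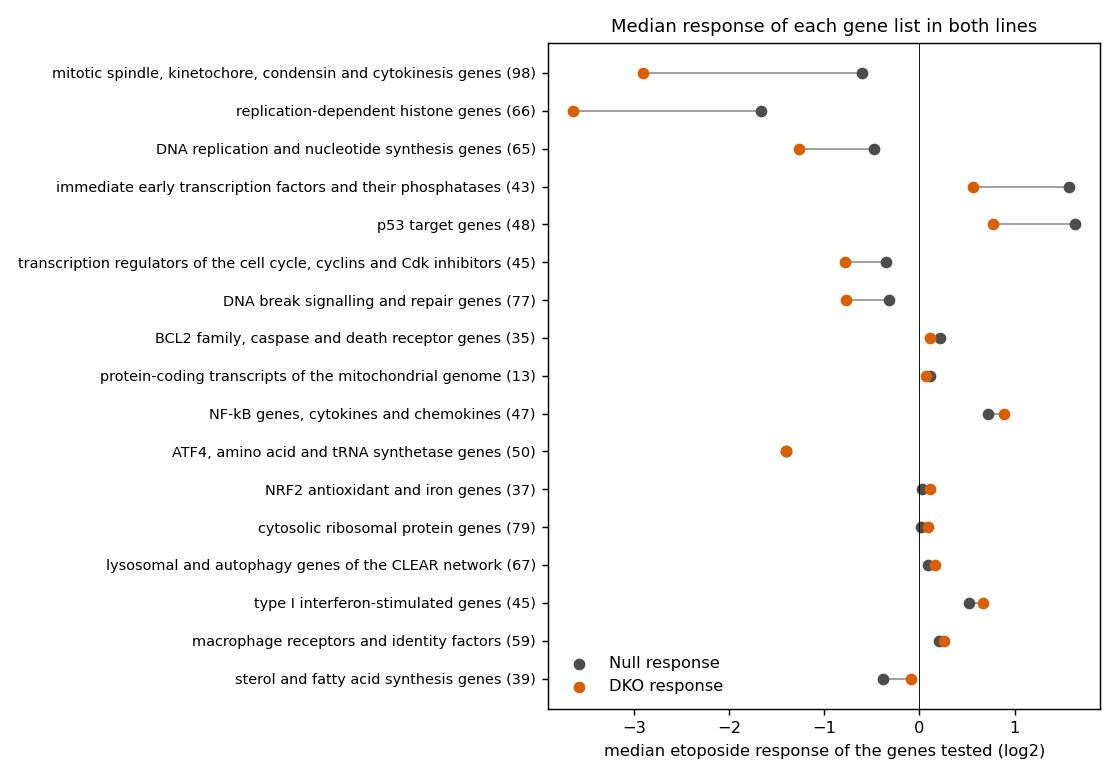
Points are the median etoposide response, on the log2 scale, of the genes tested in each of 17 lists in Null cells (grey) and DKO cells (orange), with the number of genes in brackets and lists in order of their median interaction. The mitosis list moved from −0.60 to −2.90 and the histone list from −1.66 to −3.63, whereas the ATF4 list was at −1.40 in each line.

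The genes with the most positive interactions were of mixed function and mostly of low level in one group. Lipg, an endothelial lipase, was at 14.4, 15.3 and 14.7 CPM in DKO etoposide libraries and did not exceed 0.338 CPM in any other library (interaction 4.20). Pla2g2d, a secreted phospholipase, was at 16.5, 15.2 and 19.7 CPM in DKO etoposide libraries and at most 0.772 CPM elsewhere (2.65), and Scin, an actin-severing protein, at 9.48, 11.6 and 12.7 CPM and at most 0.901 CPM elsewhere (2.98). For these genes a group was near 0, so the size of the fitted interaction depends on the prior count that is added before the logarithm, and their high DKO etoposide level is what let them be chosen. The call was lost for Lipg and Pla2g2d in both edgeR and DESeq2 (adjusted p up to 0.659 and 0.606), and for Pla2g2d also with limma-voom and with a prior count of 0.5. Scin did not pass the test with limma-voom, a prior count of 0.5, edgeR or DESeq2 (adjusted p up to 0.994), and its estimate was −0.85 in edgeR and 0.04 in DESeq2. The other 7 were Arhgap24 (3.66), Bhlhe41 (2.68), Clec4a1 (2.45), Scimp (2.43), Tmem86a (2.31), Il10 (2.15) and Basp1 (2.11). Basp1 gained more CPM in Null cells, from 5.65 to 15.1, than in DKO cells, from 0.57 to 6.97. Of the 10, 7 had a group with a mean under 0.5 CPM. In Bhlhe41, a circadian repressor, Null cells fell from 14.4 to 2.97 CPM while DKO cells stayed at or under 0.182 CPM, so the value rests on the Null response, and an overlapping gene could supply 23.7% of its counts.

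Several higher genes were abundant in every group. Gas7, a cytoskeletal adaptor, was at 718, 717 and 719 CPM in Null control and at 174, 166 and 167 CPM in Null etoposide libraries. In DKO cells it was at 159, 168 and 183 CPM without and 157, 156 and 161 CPM with etoposide, so that Null cells fell to the level at which DKO cells began (interaction 1.98, SE 0.09). Blnk, an adaptor of immune receptors, showed the reverse arrangement: it stayed at 83.4 ± 7.44 and 75.2 ± 2.12 CPM in Null cells and rose from 15.6 ± 0.642 to 53.1 ± 2.74 CPM in the DKO line (SD, n = 3), with an interaction of 1.91. Vsir, an immune checkpoint receptor, was at 38.9, 40.3 and 40.0 CPM in Null etoposide and 119, 119 and 121 CPM in DKO etoposide libraries, from 47.1 to 50.1 and 56.3 to 58.0 CPM in the controls (1.34, SE 0.08). Il10ra, the receptor chain for IL-10, fell in Null cells from 62.2 ± 6.28 to 50.1 ± 1.30 CPM and rose from 40.9 ± 5.36 to 102 ± 10.6 CPM in the DKO line (SD, n = 3), with an interaction of 1.63.

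Gene length was examined because etoposide inhibits an enzyme that relieves the strain of transcription. Among protein-coding genes with at least 0.5 CPM in every group, those in the top of 5 equal bins by span had a median response of −0.29 in Null and −0.22 in DKO cells, against 0.07 and 0.14 in the shortest bin. The median interaction was 0.06 in the longest and 0.05 in the shortest bin. Calls in the longest bin were 5.56% lower and 7.63% higher, and in the shortest 7.44% lower and 3.40% higher. In the bins between, from shorter to longer, 8.74%, 9.47% and 8.92% were lower and 2.76%, 2.21% and 3.72% higher. Over all genes tested the shares were 6.39% and 3.07%. The share of lower calls was thus highest in the middle bin and did not fall steadily with length.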

How the data were processed

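RNA-seq libraries of RAW264.7 cells were analysed in 4 groups of 3, Null or DKO with or without etoposide, grouped by the labels. The authors deposited whole-number read counts per Ensembl gene, not normalised. The submitters' processing notes name HISAT2, featureCounts and mm10, whereas the study's methods name HTSeq. Genes wholly within exons of an abundant gene on the opposite strand had a median read density 0.981 times that gene's (106 genes), so counts of overlapping genes are uncertain. GENCODE M21 (GRCm38) gave gene names and positions, in which 99.4% of identifiers were found, 82.7% with the same version, so that the release may differ.

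Genes were kept by edgeR's expression filter, leaving 18066 of 32688. Counts were scaled by TMM factors and turned into log2 CPM with a prior count of 3, and a model of 4 group means was fitted over all 12 libraries with limma-trend (limma 3.58.1, edgeR 4.0.16, R 4.3.3), with robust moderation and Benjamini-Hochberg adjustment over all genes tested. Calls required an adjusted p under 0.05. Linear differences are of group mean CPM. The test was checked on simulated data, where false calls exceeded the nominal share over all genes and were concentrated among genes with a group mean under 0.5 CPM. True differences were placed there only in genes with a mean of at least 1 CPM over the groups. Alternatives included edgeR's quasi-likelihood test, DESeq2 1.42.0, other scalings, filters and prior counts, and leaving out each library.

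Genes were named by rule: the 10 highest and 10 lowest protein-coding genes with at least 5 CPM in a group and under 25% possible overlap, the strongest members of each list, response pattern and line class, and fixed regulators and markers. The members and lists were chosen with earlier results of these data known. Promoters (250 bases before to 50 after the start) came from RefSeq, GRCm38.p6, which held them for 10808 of the genes tested. Precision is limited by 3 libraries a group, and the study names a pair of RNA kits without saying which library used which. Some of the genes that the rule names are not reported here.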

Additional observations from a re-analysis of the deposited data

Results flagged for a closer look

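The interaction itself is a test of whether the response differed between the lines, and it was called for 1708 genes. The difference was one of direction for 66 genes that rose in Null and fell in DKO cells and for 51 genes that fell in Null and rose in DKO cells.

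Among the genes named, those that rose in Null and fell in DKO cells were Arhgap32 (interaction −3.83), Egr1 (−3.55), Kif18b (−2.85), Kifc5b (−2.44), Mtfr2 (−2.34), Cd40 (−1.43), Clec7a (−1.36), Tnfaip3 (−1.21) and Fcgr2b (−1.14). Kif18b and Kifc5b are kinesins of the spindle. Kifc5b was at 7.78, 9.06 and 11.7 CPM in Null control and 21.3, 22.1 and 21.3 CPM in Null etoposide libraries, against means of 7.47 ± 2.70 and 3.13 ± 1.08 CPM in the DKO line (SD, n = 3). The Null level of Arhgap32 did not exceed 0.265 CPM, so the size of its value depends on the prior count.

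Genes that fell in Null and rose in DKO cells included Spi1 (0.45), Vsir (1.34), Il10ra (1.63), Dhrs3 (1.88) and Arhgap24 (3.66). Dhrs3, a retinaldehyde reductase, fell from 67.5 ± 3.23 to 30.1 ± 0.434 CPM in the Null line (SD, n = 3) and rose in the DKO line from 8.09, 6.43 and 7.35 CPM to 12.6, 12.6 and 10.9 CPM. Arhgap24 was at or under 0.682 CPM in every DKO library.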

How the results depend on the processing

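Of the values tried under 26 settings, no list median beyond the replicate spread changed sign: 470 kept within the limits set (1.5 times for a count, the replicate spread for a median) and 32 moved. Of the 127 genes named, 103 kept their side of the threshold in every setting. Requiring a log2 difference of at least 1 left 816 genes, 644 lower and 172 higher. DESeq2 called 2253 genes, 1377 lower and 876 higher. Leaving out 1 library gave 1203 to 2038 called, 849 to 1229 lower and 350 to 809 higher, and higher calls fell to 368 without Null control replicate 2 and to 350 without Null etoposide replicate 3, which has fewer samples. The median interaction of the p53 targets was −0.52 by library totals alone, −0.61 with limma-voom, −0.63 with at least 1 CPM in 3 libraries and −0.62 with a prior count of 0.5. Among alternatives chosen after seeing the data, it was −0.52 with every group mean at least 0.5 CPM and −0.67 with an overlap share under 25%, where the apoptosis median was −0.16, and the macrophage median was 0.14 with every group mean at least 0.5 CPM. Leaving out 1 library gave medians of −0.69 to −0.47 for p53 targets, −0.53 to −0.44 for cell cycle regulators, −0.18 to −0.046 for apoptosis genes and 0.15 to 0.26 for macrophage genes. With edgeR the interaction of Mx1 was 0.093 and that of Scin −0.85, neither past the threshold, against −1.79 and 2.98 with limma-trend; Mx1 lost its call in 8 other settings, limma-voom, a prior count of 0.5, DESeq2 and 5 fits without 1 library (adjusted p up to 0.866); both have a group near 0 CPM, and the cause was not tested. With the replicate number as a block 1310 genes were called, 927 lower and 383 higher. Libraries with the same number did not deviate together: 1 of 18 pairs had a correlation over 0.1 (range −0.54 to 0.39) and 2 of 12 libraries correlated best with their own number. Medians near 0 did change sign within that spread, reaching 0.07 for ATF4 genes, 0.06 for NF-kB genes, 0.06 for mitochondrially encoded genes, −0.01 for NRF2 genes and −0.02 for ribosomal protein genes. Precision rests on 3 libraries a group. Genes with a group under 0.5 CPM were called in 5.77% of cases against 10.7% of the others. Most such calls were false on simulated counts. Differences were placed there only in genes with a mean of at least 1 CPM, so that false share does not carry over to the real calls.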
